A study of Mus musculus and Homo sapiens with 8 samples.

Results

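Intraepithelial lymphocytes are T cells that live between the epithelial cells of the gut. Here 10 genes expressed by them, though not by them alone, were followed in RNA-seq of small intestinal crypts. The genes were chosen by name: Cd3d, Cd3e, Cd3g, Cd8a, Cd8b1, Gzma, Gzmb, Itgae, Cd7 and Ccl5. All 10 were present among the 13359 distinct genes of the deposited expression table. The 2 libraries labelled Apc Min with Zmynd8 IEC-/- came from untreated C57BL/6 mice aged 2 months, and they are called knockout-labelled here. The 2 Apc Min libraries came from untreated C57BL/6 mice of the same age. All 4 libraries therefore carry the Apc Min mutation, which truncates a regulator of Wnt signalling and leads to intestinal adenomas, and no library of mice with intact Apc was analysed here. Every library was a pool of RNA from 3 mice, mixed by equal mass. The labels tie the deletion to IEC, which is read here as intestinal epithelial cells, and they name neither the Cre driver nor the deleted part of the gene. A further 4 ChIP-seq libraries of HCT116 cells were not analysed here.

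These lymphocytes carry a T cell receptor whose signal enters the cell through the CD3 chains. Many of them carry CD8, either as a pair of alpha chains or as an alpha chain with a beta chain, and the first form is typical of the lymphocytes resident in gut epithelium. They hold granules with granzyme proteases, which kill infected or transformed target cells, and they are held in the epithelium by the integrin CD103, which binds E-cadherin on epithelial cells. Epithelial cells in turn feed and select them through interleukin 15, butyrophilin-like proteins and nonclassical MHC molecules. A crypt preparation is mostly epithelium, and lymphocytes are a minor part of it.

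Expression was read as FPKM, the reads of a gene scaled by its length and by the total of its library. The libraries held between 43457250 and 47500045 reads on the listed genes. Zmynd8, the gene named in the labels, stood at 7.30 and 7.65 FPKM in the knockout-labelled libraries, against 6.94 and 4.73 FPKM in the Apc Min libraries. Its RNA was thus no lower where the label says knockout (0.33 on the log2 scale, SE 0.18, adjusted p = 0.293), and the directions below rest on the labels. Groups were compared with limma on log2(FPKM + 1) over 12948 genes, with Benjamini-Hochberg adjustment over all of them and 0.05 as the threshold. The labels do not say that pools of 1 group came from separate litters or days. The p-values therefore measure only the spread between these pools, which may be technical.

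For none of the 10 genes did a difference between the groups pass the test. By limma 0 of the 10 passed, against 0.726% of all genes tested (0.595% higher and 0.131% lower), and 0 had an unadjusted p under 0.05, against 26.6% of all genes tested. With voom on whole reads 0 of the 10 passed too, against 1.16% of all genes tested (0.95% higher). In the authors' deposited table each of them has a q-value of 1, where 2.13% of all genes have one under 0.05. Fold changes were negative for 7 genes and positive for 3, against 71.7% negative among all genes tested. Their median log2 fold change was -0.16, beside -0.15 for all genes tested. In bulk RNA, fewer lymphocytes and less RNA per lymphocyte cannot be told apart. Nor can lymphocytes within the epithelium be told from lymphocytes of other tissue layers. Markers of B cells and of stroma were read in the same pools, and the source of the lymphocyte RNA was not tested. All 10 genes passed the filter on low values, and the 95% intervals of their log2 fold changes together ran from -1.10 to 0.94. Changes inside each gene's own interval are therefore not excluded by these pools.

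The order of the levels was led by the granule protease Gzma, followed by the chemokine Ccl5 and the protease Gzmb. Then came Cd7, Cd3g, Cd8a, Cd3e and Itgae, and Cd3d and Cd8b1 were lowest. Over the 4 libraries the ranges of neighbours in this order overlapped except at 3 steps, between Gzmb and Cd7, between Cd7 and Cd3g and between Itgae and Cd3d. The plot of levels by library shows this order.

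**Figure D1:**
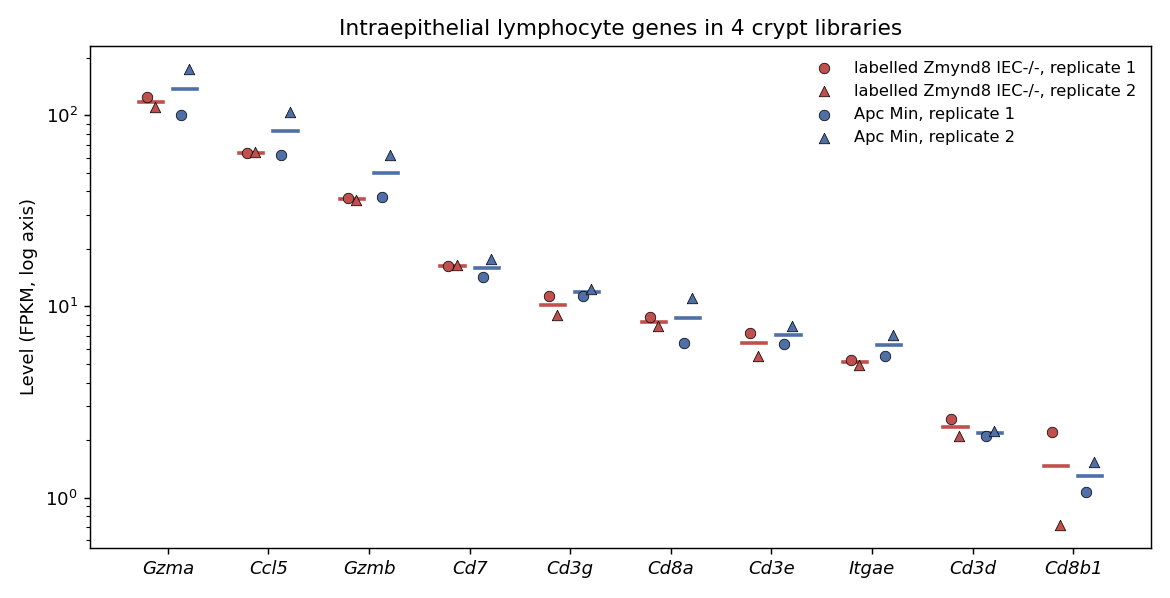
Level of each gene in FPKM on a log axis, with genes ordered by their mean over the 4 libraries. Circles and triangles are replicates 1 and 2, bars are group means, and red knockout-labelled libraries stand left of blue Apc Min libraries. Apc Min replicate 2 was the highest library for 8 of the 10 genes, and it exceeded Apc Min replicate 1 for 35.5% of all genes tested.

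The CD3 chains lie side by side on chromosome 9 and pass the signal of the T cell receptor into the cell. Cd3g (chromosome 9, 44969572 to 44980431, minus strand) and Cd3d (44981769 to 44987052, plus strand) point away from each other, with 1337 bases between them, and Cd3e (44998735 to 45009664, minus strand) follows after 11682 bases. Cd3e stood at 7.29 and 5.53 FPKM in the knockout-labelled libraries, against 6.33 and 7.89 FPKM in the Apc Min libraries. The groups overlapped, with both the lowest and the second highest value in the knockout-labelled libraries (log2 fold change -0.13, SE 0.17, adjusted p = 0.631). Cd3g stood at 11.3 and 9.02 FPKM in the knockout-labelled libraries, against 11.3 and 12.4 FPKM in the Apc Min libraries. The higher value of the knockout-labelled libraries lay just under the lower Apc Min value, so the groups did not overlap, but the difference did not pass (-0.21, SE 0.14, adjusted p = 0.359). Cd3d stood at 2.57 and 2.11 FPKM in the knockout-labelled libraries, against 2.10 and 2.24 FPKM in the Apc Min libraries. These groups overlapped (0.07, SE 0.14, adjusted p = 0.759). In the knockout-labelled libraries replicate 1 was higher than replicate 2 for all of the CD3 chains. Cd3e overlaps the antisense gene ENSMUSG00000111203.1 on the opposite strand, listed at 0.774 and 0.924 FPKM in the knockout-labelled libraries and at 1.05 and 1.42 FPKM in the Apc Min libraries. The sources used here do not state whether strand was used in counting, so reads of such pairs cannot be told apart.

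The stretches before the starts of Cd3d and Cd3e are shown for the receptor genes, and those before Gzma and Gzmb for the granule genes, because these 4 held one of the searched motifs. Each is the 250 bases before the RefSeq start on GRCm38.p6, the build that mm10 also names, and capitals mark the letters found. Cd3d is chr9:44981536-44981785 on the plus strand, Cd3e is chr9:45009612-45009861 on the minus strand, Gzma is chr13:113100982-113101231 on the minus strand and Gzmb is chr14:56262335-56262584 on the minus strand.
Cd3d: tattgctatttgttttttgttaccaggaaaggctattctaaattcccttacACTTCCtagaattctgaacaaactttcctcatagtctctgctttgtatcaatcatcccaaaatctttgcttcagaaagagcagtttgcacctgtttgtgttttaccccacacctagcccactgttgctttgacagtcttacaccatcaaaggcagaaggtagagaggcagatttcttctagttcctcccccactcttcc
Cd3e: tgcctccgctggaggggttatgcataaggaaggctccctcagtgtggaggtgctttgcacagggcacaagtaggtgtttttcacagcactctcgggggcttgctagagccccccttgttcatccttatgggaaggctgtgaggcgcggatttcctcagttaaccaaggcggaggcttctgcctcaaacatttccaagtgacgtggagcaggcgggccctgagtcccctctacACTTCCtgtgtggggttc
Gzma: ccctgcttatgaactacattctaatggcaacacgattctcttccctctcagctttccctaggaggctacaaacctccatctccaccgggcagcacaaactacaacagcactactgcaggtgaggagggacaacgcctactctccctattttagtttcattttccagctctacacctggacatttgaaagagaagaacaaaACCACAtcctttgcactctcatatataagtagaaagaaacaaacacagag
Gzmb: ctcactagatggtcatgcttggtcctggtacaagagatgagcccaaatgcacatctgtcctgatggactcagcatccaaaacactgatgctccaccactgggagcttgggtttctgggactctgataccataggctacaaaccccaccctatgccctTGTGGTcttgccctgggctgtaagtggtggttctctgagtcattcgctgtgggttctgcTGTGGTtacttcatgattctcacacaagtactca
The letters TGTGGT, a core bound by RUNX factors, and GGAAGT, a core bound by ETS factors, were searched on both strands. RefSeq promoters were matched for 6 of the 10 genes, namely Cd3d, Cd3e, Cd3g, Cd8a, Gzma and Gzmb. The RUNX letters were found in 2 of the 6, with 1 match in Gzma ending 44 bases before the start and 2 in Gzmb, the nearer ending 28 bases before it. The ETS letters were found in 2 of the 6, in Cd3e with 12 bases between the match and the start and in Cd3d with 193 bases. Among 32851 promoter stretches of the same length 14.0% held the RUNX letters and 19.7% the ETS letters. A match describes these letters and does not show binding.

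The coreceptor genes Cd8a and Cd8b1 encode the alpha and beta chains of CD8, which binds MHC class I. They are neighbours on chromosome 6 (Cd8b1 at 71322812 to 71337451, Cd8a at 71373427 to 71379171, both on the plus strand). Cd8a stood at 8.77 and 7.88 FPKM in the knockout-labelled libraries, against 6.41 and 11.1 FPKM in the Apc Min libraries. Both values of the knockout-labelled libraries lay between the Apc Min values (-0.02, SE 0.26, 95% interval -0.72 to 0.67, adjusted p = 0.962). Cd8b1 stood at 2.21 and 0.721 FPKM in the knockout-labelled libraries, against 1.07 and 1.53 FPKM in the Apc Min libraries. Here the knockout-labelled libraries held the highest and the lowest value (0.04, SE 0.34, 95% interval -0.87 to 0.94, adjusted p = 0.953). Cd8b1 rested on 146 and 49 reads in the knockout-labelled libraries, against 68 and 106 reads in the Apc Min libraries. The exact Poisson 95% intervals, which cover counting error only, were 1.87 to 2.60 FPKM and 0.533 to 0.953 FPKM for the knockout-labelled libraries, and these do not meet. The ratio of Cd8a to Cd8b1, chosen after the values were seen, was 3.96 and 10.9 in the knockout-labelled libraries, against 5.97 and 7.23 in the Apc Min libraries. In every library the alpha chain RNA was thus higher per length than the beta chain RNA.

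The granule proteases and Ccl5 were the most abundant of the genes, and with Cd8a they had the widest ratios between the Apc Min libraries. Gzma, a tryptase of cytotoxic granules (minus strand of chromosome 13, 113093827 to 113100981), stood at 124.6 and 109.9 FPKM in the knockout-labelled libraries, against 100.2 and 174.8 FPKM in the Apc Min libraries. Both values of the knockout-labelled libraries lay between the Apc Min values (-0.18, SE 0.30, 95% interval -0.98 to 0.63, adjusted p = 0.722). Gzmb, which cleaves caspases in target cells (minus strand of chromosome 14, 56258856 to 56262260), stood at 36.98 and 35.89 FPKM in the knockout-labelled libraries, against 37.14 and 62.08 FPKM in the Apc Min libraries. The groups did not overlap, but Apc Min replicate 1 lay next to the knockout-labelled libraries and Apc Min replicate 2 far above them (-0.39, SE 0.26, 95% interval -1.10 to 0.32, adjusted p = 0.386). Ccl5, a chemokine that draws T cells (minus strand of chromosome 11, 83525778 to 83530518), stood at 63.4 and 64.1 FPKM in the knockout-labelled libraries, against 61.9 and 103 FPKM in the Apc Min libraries. The groups overlapped, with Apc Min replicate 1 just below the knockout-labelled libraries (-0.32, SE 0.26, 95% interval -1.03 to 0.39, adjusted p = 0.461). Apc Min replicate 2 stood at 1.74 times replicate 1 for Gzma, 1.67 times for Gzmb and 1.67 times for Ccl5, beside 1.73 times for Cd8a. Gzma rested on 3935 to 7485 reads a library and Gzmb on 2355 to 4294.

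Itgae, the CD103 chain of the integrin that binds E-cadherin (chromosome 11, 73090505 to 73147449, plus strand), stood at 5.27 and 4.94 FPKM in the knockout-labelled libraries, against 5.51 and 7.09 FPKM in the Apc Min libraries. The groups did not overlap, and its adjusted p was the smallest of the 10 genes (-0.25, SE 0.15, 95% interval -0.62 to 0.13, adjusted p = 0.317). Itgae overlaps Gsg2, a mitotic kinase gene on the opposite strand, which stood at 3.28 and 3.04 FPKM in the knockout-labelled libraries and at 4.57 and 5.26 FPKM in the Apc Min libraries; its part in the Itgae values was not tested. Cd7, a surface glycoprotein of T and NK cells (minus strand of chromosome 11, 121036747 to 121039478), stood at 16.2 and 16.5 FPKM in the knockout-labelled libraries, against 14.2 and 17.6 FPKM in the Apc Min libraries. The values of the knockout-labelled libraries lay between those of Apc Min (0.05, SE 0.13, 95% interval -0.28 to 0.37, adjusted p = 0.83). Cd7 overlaps Gm11775, a noncoding gene on the opposite strand, listed at 12.8 and 13.8 FPKM in the knockout-labelled libraries and at 8.08 and 8.93 FPKM in the Apc Min libraries; its part in the Cd7 values was not tested either.

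In every one of the 4 pairings of a knockout-labelled with an Apc Min library Cd3g, Gzmb and Itgae were lower, that is 3 of the 10, beside 48.5% of the genes tested. After median-ratio scaling 0 of the 10 were, beside 28% of the genes tested, and after quantile normalization 0 were, beside 30.3%. None of the 10 was higher in every pairing, beside 14.9% of the genes tested. Median-ratio scaling moved the median over all genes tested to -0.0057 and that of the 10 genes to 0.008, with 5 negative and 5 positive. The signs of Cd3e and Cd8a flipped under this scaling, at 0.018 and 0.13. The plot of fold changes sets both scalings side by side.

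**Figure D2:**
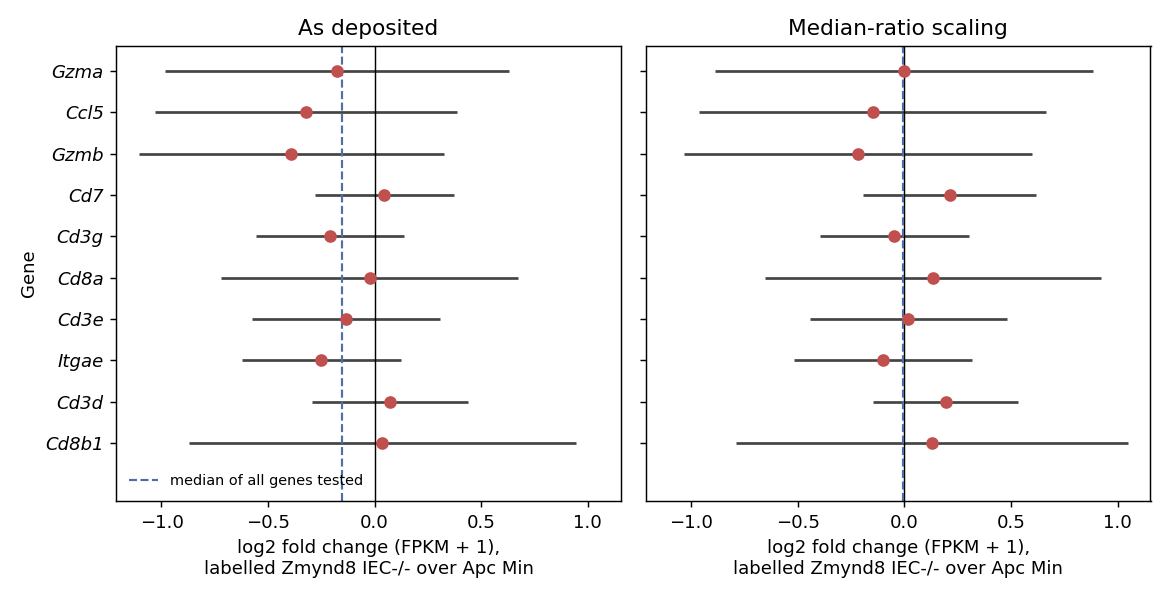
Log2 fold change of FPKM + 1 in the knockout-labelled libraries over the Apc Min libraries, with 95% intervals from limma, as deposited on the left and after median-ratio scaling on the right. The dashed line is the median of all genes tested, -0.15 on the left and -0.0057 on the right, and every interval spans 0.

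The 2 Apc Min libraries differed by more than the group means did for 8 of the 10 genes. The share of all genes tested for which this holds is not given here, so this count is a description only. Apc Min replicate 2 was higher than replicate 1 for all 10, whereas 35.5% of all genes tested were higher in replicate 2. The median ratio of Apc Min replicate 2 to replicate 1 was 1.36 over the 10 genes and 0.935 over all genes tested. In the knockout-labelled libraries replicate 1 was higher than replicate 2 for 8 of the 10, beside 59.0% of all genes tested, and the median ratio was 1.12, beside 1.03. Without Apc Min replicate 2 the median log2 fold change of the 10 genes was 0.07, and without Apc Min replicate 1 it was -0.32. Gzmb gave -0.75 without Apc Min replicate 1 and -0.03 without replicate 2, Ccl5 -0.69 and 0.04, and Gzma -0.57 and 0.22 in the same order. In these comparisons the remaining Apc Min library is assumed to vary like the knockout-labelled libraries, and none of the 10 genes passed in any of them.

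Ratios within a library do not depend on scaling, and each of the other genes was set against the mean of Cd3d, Cd3e and Cd3g. That mean was 7.05 and 5.55 FPKM in the knockout-labelled libraries, against 6.57 and 7.503 FPKM in the Apc Min libraries. Gzma stood at 17.7 and 19.8 times the CD3 mean in the knockout-labelled libraries, against 15.3 and 23.3 times in the Apc Min libraries. Gzmb stood at 5.25 and 6.46 times the CD3 mean in the knockout-labelled libraries, against 5.65 and 8.27 times in the Apc Min libraries. The groups overlapped for all 7 of these ratios, and Apc Min replicate 2 exceeded Apc Min replicate 1 in each. Among ratios chosen after the values were seen, Gzma to Gzmb was 3.37 and 3.06 in the knockout-labelled libraries, against 2.70 and 2.82 in the Apc Min libraries. These groups did not overlap. An exact permutation test of 2 libraries against 2 cannot reach the threshold, so none is given.

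**Figure D3:**
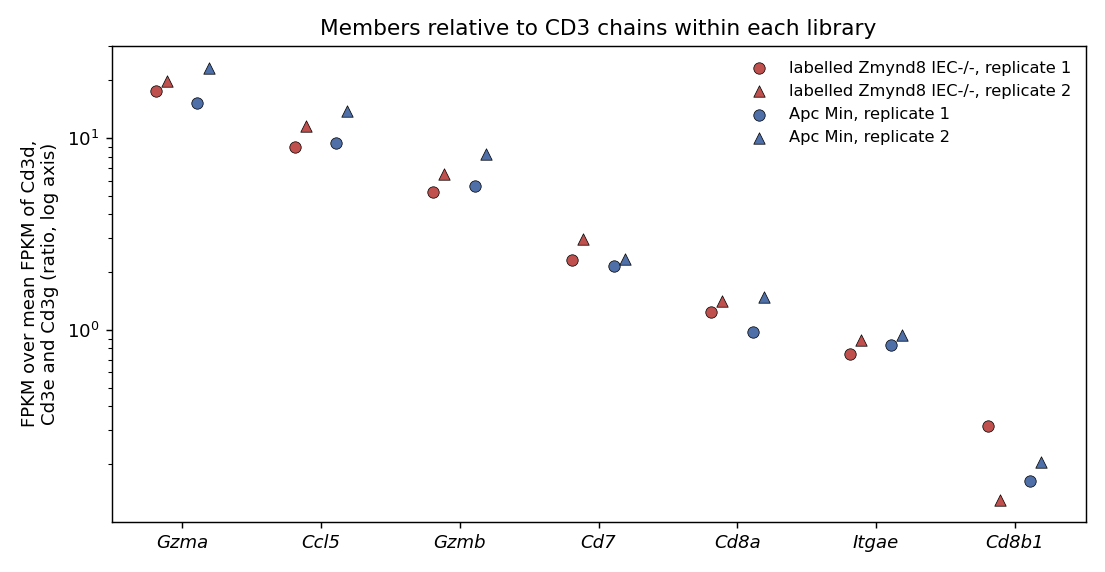
Ratio of each gene's FPKM to the mean FPKM of Cd3d, Cd3e and Cd3g in the same library, on a log axis. Red knockout-labelled libraries stand left of blue Apc Min libraries, circles and triangles are replicates 1 and 2, and the groups overlap for each gene.

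Among other genes of the T cell lineage and of leukocytes none passed the test either. The 7 lists drawn up for them held receptor signalling, cytotoxic and NK receptor, homing, transcription factor, cytokine receptor, receptor constant and pan-leukocyte genes. Of their 128 genes 84 were in the table and 83 were tested. By limma 0 passed, against 0.726% of all genes tested, 3 had an unadjusted p under 0.05, against 26.6%, and by voom 0 passed, against 1.16%. The list medians ran from -0.09 to 0.03, beside -0.15 for all genes tested. How often Apc Min replicate 2 was the highest library was counted in these lists too. That library was the highest for 6 of 11 cytotoxic genes and 4 of 8 cytokine receptor genes. It was the highest for 4 of 14 receptor signalling, 4 of 13 homing, 3 of 14 transcription factor, 2 of 7 receptor constant and 0 of 17 pan-leukocyte genes. The share of all genes tested that was highest there is not given here, so these counts are a description only. That share cannot exceed 35.5%, the share higher there than in Apc Min replicate 1.

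Among receptor constant genes, the alpha chain gene Trac stood at 6.29 and 5.48 FPKM in the knockout-labelled libraries, against 5.29 and 5.07 FPKM in the Apc Min libraries (0.15, adjusted p = 0.435). The delta chain gene Trdc, which marks gamma-delta T cells, stood at 6.32 and 5.64 FPKM in the knockout-labelled libraries, against 5.38 and 3.10 FPKM in the Apc Min libraries (0.45, adjusted p = 0.285). Both genes were higher in all 4 pairings, beside 14.9% of the genes tested, and neither passed. They were the only 2 positive genes of the 7, and the other 5 were negative, beside 71.7% negative among all genes tested. The beta chain gene Trbc2, for example, gave -0.11 (adjusted p = 0.684). The list median was -0.07, beside -0.15 for all genes tested. Of the 7 receptor constant genes 1, Tcrg-C4, was lower in all 4 pairings, beside 48.5% of the genes tested. The value of Trdc was 0.77 without Apc Min replicate 1 and 0.13 without Apc Min replicate 2. Their ratio, Trac to Trdc, was 0.995 and 0.972 in the knockout-labelled libraries, against 0.983 and 1.64 in the Apc Min libraries. The gamma chain gene Tcrg-C4, which has close relatives that can share its reads, stood at 4.21 and 3.61 FPKM in the knockout-labelled libraries, against 5.13 and 5.74 FPKM in the Apc Min libraries (-0.39, adjusted p = 0.156). Cd4, the coreceptor of helper T cells, stood at 2.88 and 2.28 FPKM in the knockout-labelled libraries, against 3.00 and 2.46 FPKM in the Apc Min libraries.

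In the cytotoxic list the granule gene Nkg7 stood at 9.62 and 8.56 FPKM in the knockout-labelled libraries, against 8.33 and 10.6 FPKM in the Apc Min libraries. Its highest and lowest values were both in Apc Min, as for Gzma. Gzmk, a further granzyme gene, stood at 3.66 and 2.03 FPKM in the knockout-labelled libraries, against 1.16 and 2.28 FPKM in the Apc Min libraries (0.50, adjusted p = 0.352), and its value ran from 0.19 without knockout-labelled replicate 1 to 0.81 without knockout-labelled replicate 2. Itgb7, the partner chain of CD103, stood at 3.26 and 2.58 FPKM in the knockout-labelled libraries, against 2.90 and 3.46 FPKM in the Apc Min libraries. The kinase gene Zap70, which docks on phosphorylated CD3 chains, gave -0.19 (adjusted p = 0.379). Gpr55, a lipid receptor gene of these lymphocytes, gave 0.31 (adjusted p = 0.253), Id3, a regulator gene also expressed by epithelium, gave -0.32 (adjusted p = 0.174), and the cytokine signalling kinase gene Jak3 gave -0.33 (adjusted p = 0.188). Cytip, a leukocyte adhesion regulator gene, stood at 4.18 and 3.48 FPKM in the knockout-labelled libraries, against 2.83 and 2.67 FPKM in the Apc Min libraries (0.36, adjusted p = 0.184). Ptprc, the pan-leukocyte marker CD45, stood at 11.9 and 8.72 FPKM in the knockout-labelled libraries, against 11.4 and 9.51 FPKM in the Apc Min libraries, and did not share the high value of Apc Min replicate 2. The signs of Cd4, Nkg7, Itgb7 and Ptprc flipped after median-ratio scaling, at 0.07, 0.11, 0.03 and 0.14.

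On the epithelial side of the contact, 1 gene rose. A list of 23 epithelial genes was drawn up, mostly of genes that attract, retain or feed these lymphocytes. It also held the marker Epcam, the transcription factor genes Hnf4a, Hnf4g and Ahr, and the enzyme gene Ido1. Of the 23 genes 20 were tested. Among them 1 passed higher, against 0.595% of all genes tested, and 0 lower, against 0.131%. By voom 1 passed higher, against 0.95%. An unadjusted p under 0.05 was found for 8, against 26.6%, and the median log2 fold change was 0.05, beside -0.15 for all genes tested. Of these 20 genes 8 were higher in all 4 pairings and 5 were lower, or 40% and 25%, beside 14.9% and 48.5% of the genes tested. Il18, an epithelial cytokine gene that drives interferon gamma in lymphocytes, stood at 24.0 and 27.3 FPKM in the knockout-labelled libraries, against 11.9 and 11.3 FPKM in the Apc Min libraries (log2 fold change 1.08, SE 0.11, adjusted p = 0.0417). The call lay near the threshold and was lost under several alternatives, among them those without a filter on low values (adjusted p = 0.0528), with a filter at a mean of 5 FPKM (0.0539), without trend and robust moderation (0.0703), without Apc Min replicate 1 (0.0596) and without knockout-labelled replicate 1 (0.168) or 2 (0.345). The log2 fold change stayed between 0.99 and 1.17 with any library left out.

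Hnf4g, a transcription factor gene of enterocytes, stood at 132 and 130 FPKM in the knockout-labelled libraries, against 93.4 and 76.3 FPKM in the Apc Min libraries (0.63, adjusted p = 0.0941). Btnl2, a butyrophilin-like gene, stood at 58.5 and 66.8 FPKM in the knockout-labelled libraries, against 36.6 and 44.9 FPKM in the Apc Min libraries (0.61, adjusted p = 0.104). H2-T3 encodes the thymus leukemia antigen, a ligand of the CD8 alpha pair, and stood at 100.9 and 111.9 FPKM in the knockout-labelled libraries, against 71.1 and 83.9 FPKM in the Apc Min libraries (0.46, adjusted p = 0.129). All of these were higher in all 4 pairings, beside 14.9% of the genes tested, and none of the 3 passed. The other butyrophilin-like genes tested did not all share this. Btnl1 gave 0.36 (adjusted p = 0.206), while Btnl4 gave 0.02 and Btnl6 0.04, each with overlapping groups. Of the 20 tested genes of the list 13 were positive and 7 negative, beside 71.7% negative among all genes tested. The lowest was the cytokine gene Il7 at -0.54 (adjusted p = 0.167). Cdh1, the E-cadherin gene and ligand of CD103, stood at 186 and 169 FPKM in the knockout-labelled libraries, against 257 and 216 FPKM in the Apc Min libraries (-0.41, adjusted p = 0.154). The epithelial marker Epcam stood at 989 and 976 FPKM in the knockout-labelled libraries, against 1195 and 1315 FPKM in the Apc Min libraries (-0.35, adjusted p = 0.176). The CD3 mean was 0.0071 and 0.0057 of the Epcam level in the knockout-labelled libraries, against 0.0055 and 0.0057 in the Apc Min libraries, and these groups overlapped.

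**Figure D4:**
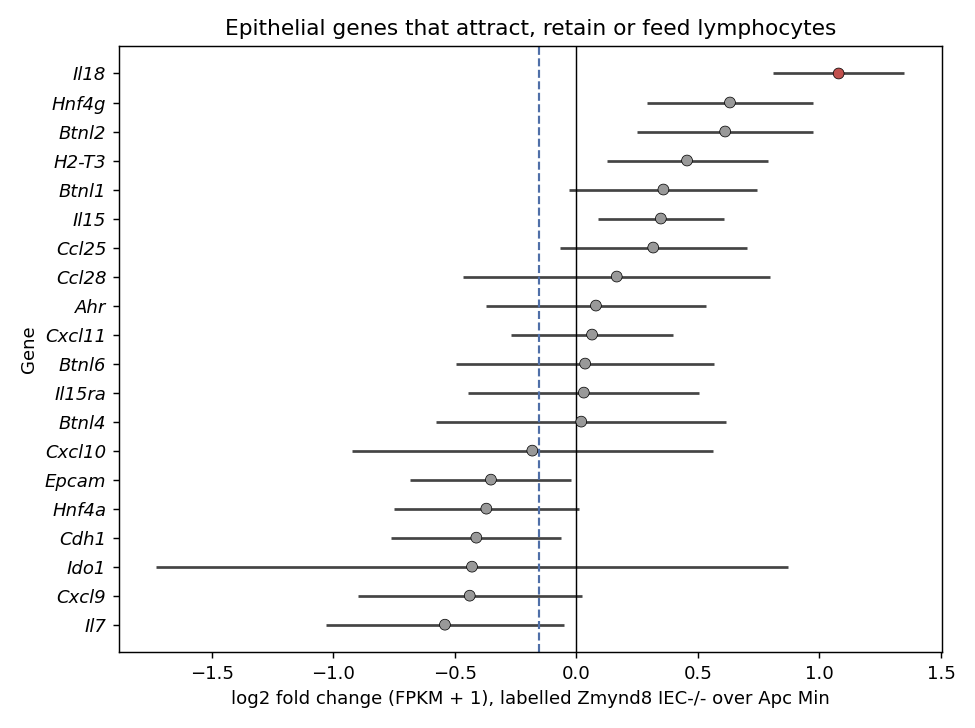
Log2 fold change of FPKM + 1 in the knockout-labelled libraries over the Apc Min libraries for the 20 tested epithelial genes, with 95% intervals from limma. Il18 in red, at 1.08, is the gene past the threshold, grey genes did not pass, and the dashed line is the median of all genes tested, -0.15.

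Other cell types in the pools varied by library, and their part in the lymphocyte values was not tested. Counts of genes highest in Apc Min replicate 2 stand below without their share over all genes tested. That share cannot exceed 35.5%, the share higher there than in Apc Min replicate 1. Summed over the 10 genes, where Gzma, Ccl5 and Gzmb dominate, the level was 279 and 257 FPKM in the knockout-labelled libraries, against 246 and 399.99 FPKM in the Apc Min libraries. Ileal genes summed to 3895 and 1505 FPKM in the knockout-labelled libraries, against 2950 and 9970 FPKM in the Apc Min libraries. Of these 9 genes 8 were highest in Apc Min replicate 2, where 8 of the 10 followed genes were highest. Receptor constant genes summed to 60.8 and 47.0 FPKM in the knockout-labelled libraries, against 52.5 and 58.8 FPKM in the Apc Min libraries, and 2 of 7 were highest in Apc Min replicate 2. Blood markers summed to 40.1 and 38.4 FPKM in the knockout-labelled libraries, against 29.5 and 70.4 FPKM in the Apc Min libraries, and 5 of the 6 were highest in Apc Min replicate 2. Pan-leukocyte genes did not share that high value: they summed to 165 and 127 FPKM in the knockout-labelled libraries, against 167 and 131 FPKM in the Apc Min libraries, and 0 of 17 were highest in Apc Min replicate 2. Enterocyte genes summed to 26381 and 30605 FPKM in the knockout-labelled libraries, against 16482 and 18803 FPKM in the Apc Min libraries. All 22 were positive, where 71.7% of all genes tested were negative. By limma 3 passed higher, against 0.595%, and by voom 6, against 0.95%. The 3 were the glucose transporter gene Slc2a2 (2.29), the peptidase gene Mme (1.52) and the trehalase gene Treh (1.78). Proximal small intestine genes summed to 1226 and 2003 FPKM in the knockout-labelled libraries, against 395 and 232 FPKM in the Apc Min libraries. Of 9 tested, 1 passed higher by limma, against 0.595% of all genes tested, the cytochrome gene Cyp3a11 (2.70). By voom 2 passed higher, against 0.95%. Paneth cell genes summed to 9605 and 13265 FPKM in the knockout-labelled libraries, against 16198 and 17096 FPKM in the Apc Min libraries. All 11 were negative, and 2 passed lower by limma, against 0.131% of all genes tested. These 2 were the matrix protease gene Mmp7 (-1.80) and the lectin gene Itln1 (-1.47). By voom 4 passed lower, against 27 of the 12948 genes tested. Proliferation genes were lower in all 4 pairings in 18 of 18, beside 48.5% of the genes tested. By limma 0 of them passed, against 0.726% of all genes tested, and by voom 0, against 1.16%. An unadjusted p under 0.05 was found for 15, against 26.6%. B and plasma cell markers summed to 488 and 331 FPKM in the knockout-labelled libraries, against 418 and 435 FPKM in the Apc Min libraries. Stromal and endothelial markers summed to 383 and 347 FPKM in the knockout-labelled libraries, against 389 and 489 FPKM in the Apc Min libraries. Neither list held a gene past the threshold by limma, against 0.726% of all genes tested, or by voom, against 1.16%. An unadjusted p under 0.05 was found for 0 of 10 and 1 of 15 in the same order, against 26.6%. Of the ileal, blood, pan-leukocyte, enterocyte and proliferation markers in the table, none was at 0 in any library.

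**Figure D5:**
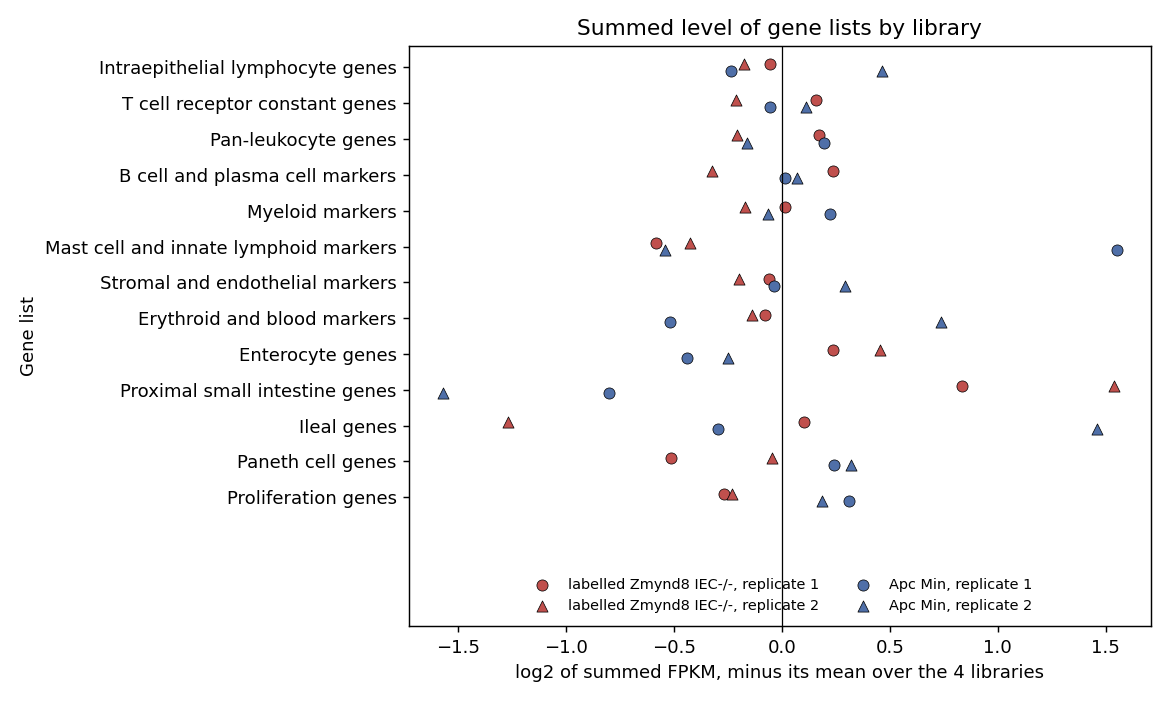
Log2 of the summed FPKM of each gene list, minus its mean over the 4 libraries, in red for knockout-labelled libraries and blue for Apc Min, with circles and triangles for replicates 1 and 2. The sums of the 10 intraepithelial lymphocyte genes, the ileal genes and the blood markers were highest in Apc Min replicate 2. Those of the receptor constant and pan-leukocyte genes were not.

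The mean pattern of the 10 genes, centred on each gene's mean log2(FPKM + 1), was 0.04 and -0.17 in the knockout-labelled libraries, against -0.15 and 0.28 in the Apc Min libraries. The genes with the smallest Euclidean distance to it over the 4 libraries, among 12938 other genes, were Selenbp1 at 0.025, Psmb8 at 0.040, Sspn at 0.044, ENSMUSG00000110060.1 at 0.044 and Zfp691 at 0.045. Psmb8, an immunoproteasome subunit gene, stood at 95.5 and 81.1 FPKM in the knockout-labelled libraries, against 80.6 and 110.5 FPKM in the Apc Min libraries. Of the other genes, 34 lay within a distance of 0.1. The 10 genes themselves lay at 0.143 for Cd3e to 0.526 for Cd8b1. The other genes were picked for their small distance, so the distances of the 10 are not compared with theirs. With 4 libraries such likeness is a description only.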

How the data were processed

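RNA-seq of 4 crypt libraries was used, 2 in each group, prepared with an NEBNext Ultra RNA kit per the labels' protocols. HISAT2 and mm10 appear in the submitters' processing notes; counter, annotation and strand setting are not stated there or in the labels. Per the file headers, the authors deposited expression values by library, group means, log2 fold changes, p-values and q-values. The file headers name no unit, and the deposited values were read as FPKM since all come to whole reads once gene length and library total are taken out. Of 13527 entries 168 exact repeats were dropped.

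Whole reads were recovered within 0.002 reads for 13359 of 13359 genes, as the smallest gene length that gave whole reads in every library, so a true number of reads could be a multiple. The totals behind the values ran from 44718091 to 48778712 reads. The deposited log2 fold change was not used.

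The test was limma 3.58.1 (R 4.3.3) on log2(FPKM + 1) for genes that reached 1 FPKM in 2 or more libraries, with trend and robust moderation and genotype as the only term, which left 2 residual degrees of freedom. Fold changes on this scale understate the change of low genes. The fit was tested on simulated data. Intervals are at 95%. Tables were made with Python 3.11.15.

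Alternatives were pseudocounts of 0.1 and 0.5, no filter, a filter at a mean of 5 FPKM, median-ratio scaling, quantile normalization, limma without trend, voom on recovered reads, a replicate block and leaving out each library. The 10 genes and the lists were chosen with earlier results of these data known. Named genes were the 10, Zmynd8, up to 4 genes of smallest p and every gene past the threshold from each list, Ptprc, Itgb7, Cdh1, Cd4, Nkg7 and Epcam, and the 5 genes most alike; Cd247 and Prf1 were not analysed here, and other genes under the rule are not reported here. Gsg2, ENSMUSG00000111203.1 and Gm11775 are named for their overlap with members. Btnl1, Btnl4 and Btnl6 are named as the other butyrophilin-like genes tested, and Il7 as the lowest of the epithelial list.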

Additional observations from a re-analysis of the deposited data

How the results depend on the processing

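No member passed the threshold under any of the 13 alternatives; the smallest adjusted p was 0.0676, for Gzmb without Apc Min replicate 1. The 77 higher and 17 lower genes called over the whole table became 1 and 0 without a filter, 2 and 0 at a mean of 5 FPKM, where 8 of the 10 members were tested, 11 and 0 without trend and robust moderation, and 123 and 27 with voom. Under median-ratio scaling 4 genes were called lower and under quantile normalization 6, and members lower in all pairings were 0 under both. The replicate block left 0 higher and 0 lower genes, with Il18 at an adjusted p of 0.152; same-numbered libraries deviated with a correlation of 0.0452 across genes and share only a number. With a library left out, 0 to 230 genes were called higher and 0 to 386 lower, the member median ran from -0.32 to 0.07, and 3 to 8 members were lower in all remaining pairings.

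Some signs flipped. Cd8b1 gave -0.0069 at a pseudocount of 0.1 and -0.0395 with voom. After median-ratio scaling Cd3e gave 0.018, Cd8a 0.13, Ptprc 0.14, Itgb7 0.0348, Cd4 0.0671 and Nkg7 0.11; after quantile normalization Cd3e gave 0.0471, Cd8a 0.15, Ptprc 0.13, Itgb7 0.09, Cd4 0.11 and Nkg7 0.115. With a library left out the ranges were -0.0273 to 0.17 for Cd3d, -0.31 to 0.0378 for Cd3e, -0.38 to 0.33 for Cd8a, -0.41 to 0.49 for Cd8b1, -0.57 to 0.22 for Gzma, -0.10 to 0.19 for Cd7, -0.69 to 0.0425 for Ccl5, -0.23 to 0.18 for Ptprc, -0.22 to 0.0294 for Itgb7, -0.18 to 0.0612 for Cd4 and -0.20 to 0.11 for Nkg7. The cause was not tested. Of 128 member values under the alternatives 112 kept their sign and 16 did not. Depth limits Cd8b1 most, at 49 reads in 1 library.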

Other observations

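Some other immune genes were highest in other libraries than Apc Min replicate 2, where 8 of the 10 intraepithelial lymphocyte genes were highest. All were chosen after their values were seen. Mcpt1, a protease gene of mucosal mast cells, stood at 11.6 and 12.2 FPKM in the knockout-labelled libraries, against 118 and 12.6 FPKM in the Apc Min libraries. Mcpt2, a related protease gene, stood at 2.65 and 3.24 FPKM in the knockout-labelled libraries, against 41.5 and 3.86 FPKM in the Apc Min libraries. Both were high in Apc Min replicate 1. Cd3d, Cd8a, Gzma, Cd7 and Ccl5 were lowest in that library, but Cd3e, Cd3g, Cd8b1, Gzmb and Itgae were lowest in knockout-labelled replicate 2. The B cell receptor gene Cd79a stood at 8.89 and 2.61 FPKM in the knockout-labelled libraries, against 7.67 and 3.89 FPKM in the Apc Min libraries. It was higher in replicate 1 of each group and highest in knockout-labelled replicate 1, as were 2 of the 10 genes, Cd3d and Cd8b1. The part of such cells in other values was not tested.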
